A study of Homo sapiens with 4 samples.

Results

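The respiratory chain of the mitochondrial inner membrane was followed through its nuclear genes in tumour cells and host cells of the same lesions. Members were taken by name: human and mouse genes whose symbols start with NDUFA, NDUFB, NDUFC, NDUFS, NDUFV (complex I), SDH (complex II), UQCR (complex III), COX4 to COX8 (complex IV) or ATP5 (complex V), without the NDUFAF assembly factors. This gave 95 of the 36601 human genes and 90 of the 32285 mouse genes. The human members fell into 37 genes of complex I, 4 of complex II, 9 of complex III, 19 of complex IV and 18 of complex V, with 4 complex II assembly factors (SDHAF1 to SDHAF4), the ATP synthase inhibitor gene ATP5IF1 and 3 noncoding transcripts. The mouse members were 37, 4, 8, 20 and 17 genes of complexes I to V and 4 complex II assembly factors. NDUFA4 and NDUFA4L2 were counted with complex IV, where the NDUFA4 protein sits.

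MCF10DCIS.com cells, a human line that forms lesions resembling ductal carcinoma in situ, were grown for 12 days on decellularised mammary matrix from young mice (2 to 3 months old) or aged mice (18 months or older), and then placed in the fat pads of Rag1-/- mice. Such recipients lack mature T and B cells. Tumour with adjacent stroma was collected 4 weeks after implantation, and each matrix age gave 1 gene expression library with a hashing library. The age in question is that of the matrix donor: the tumour line and the recipient genotype were the same in both groups, and the labels give no recipient age. With 1 library per group no test across samples was possible, and each interval below covers counting error only.

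Complexes I and II pass electrons from NADH and succinate to ubiquinone, complex III hands them to cytochrome c, and complex IV to oxygen. Complexes I, III and IV pump protons, and complex V uses the gradient to make ATP. Most subunits are encoded in the nucleus, and a smaller core is encoded by mitochondrial DNA. Neutrophils are short-lived cells known for relying on glycolysis with few mitochondria, and for losing mitochondrial content as they mature in the bone marrow.

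After filtering, 2118 human cells of the young pool and 2024 of the aged pool remained, with medians of 30879 and 30622 unique molecular identifiers (UMIs), and 11960 and 12963 mouse cells with medians of 2288 and 2260. The tumour cells carried the epithelial genes KRT5 at 767 and 768 CPM (UMIs of a gene per 1000000 UMIs of the cells) and EPCAM at 306 and 324 CPM, and 1 UMI per pool of the leukocyte gene PTPRC gave 0.0125 and 0.0127 CPM. Across pools, 190 cell barcodes were shared, of which 158 were kept. Free RNA was present in the droplets: a human cell held a median of 222 and 250 mouse UMIs, and a mouse cell 70 and 68 human UMIs. Mouse members made up 6928 and 6569 CPM of those stray mouse UMIs.

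Neutrophil-like cells, the most abundant host class, had by far the lowest level of nuclear respiratory chain genes. Over all 90 members the summed level was 4848 CPM in the young pool and 4830 CPM in the aged pool. Macrophage-like cells had 20583 and 20356 CPM, which is 4.25-fold and 4.21-fold higher. Monocyte-like cells had 23152 and 22048 CPM, fibroblast-like cells 19763 and 18259 CPM, NK-like cells 23514 and 21454 CPM, and endothelial-like cells 20088 and 19233 CPM. Tumour cells, counted over human genes, had 19248 and 18751 CPM, close to the fibroblast-like level, although the human and mouse sums run over different genes. Neither pool of neutrophil-like cells came near the lowest value of another named class. The order of the other classes was less clear, since the pools of NK-like cells lay further apart than macrophage-like and fibroblast-like cells of the young pool did.

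**Figure D1:**
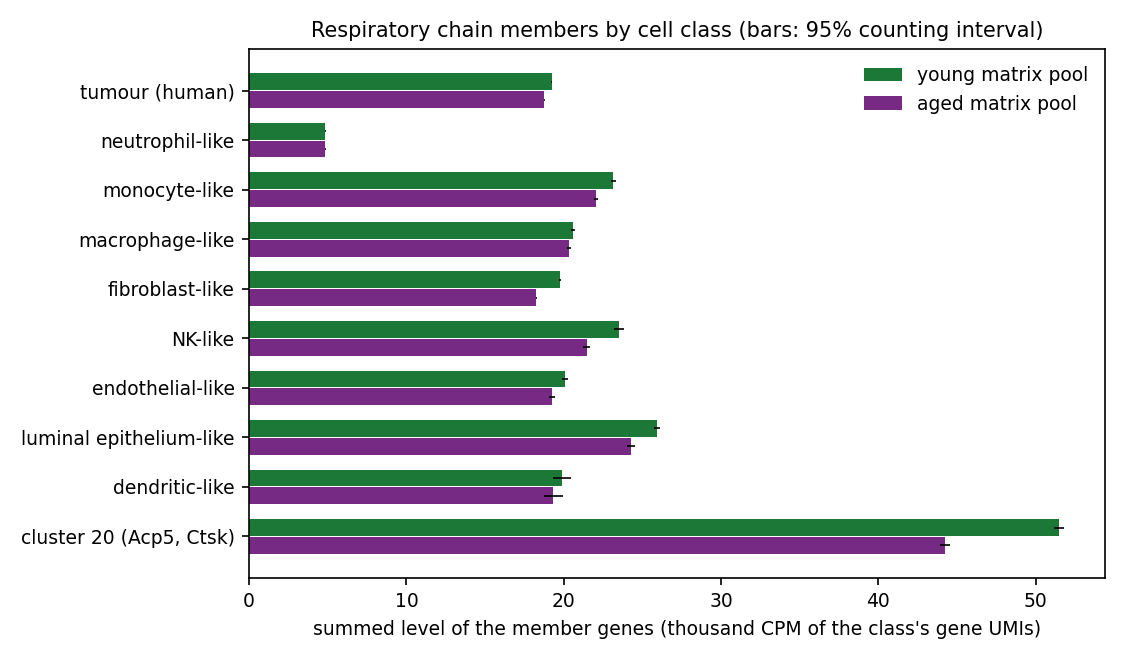
Summed level of all member genes (units of 1000 CPM of the gene UMIs of a class) in each cell class, with green bars for the young matrix pool, purple bars for the aged matrix pool and black lines for the 95% counting interval. Neutrophil-like cells stand at 4848 and 4830 CPM, and an unnamed cluster led by Acp5 and Ctsk at 51481 and 44254 CPM.

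Counted per cell, the distance was wider, because neutrophil-like cells also held less RNA. A neutrophil-like cell had a mean of 11.9 and 11.2 member UMIs, against 229 and 206 in a macrophage-like cell and 730 and 727 in a tumour cell. Thinned to 1000 UMIs per cell, the median was 4 member UMIs in neutrophil-like cells of both pools and 19 in macrophage-like cells of both pools. Shallower cells were left out of the thinned values: 396 and 488 neutrophil-like cells, and 7 and 13 macrophage-like cells. The stray mouse UMIs in tumour droplets held more of the members per UMI than neutrophil-like cells did. The part of free RNA in the neutrophil-like values was not tested.

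All 5 complexes were low in neutrophil-like cells, to unequal degree. Complex I summed to 1251 and 1267 CPM against 6180 and 6048 CPM in macrophage-like cells (4.94-fold and 4.77-fold). Complex III had 426 and 438 CPM against 1932 and 1919 CPM, and complex V 1283 and 1293 CPM against 5945 and 5888 CPM. Complex IV had 1739 and 1687 CPM against 6027 and 5995 CPM (3.47-fold and 3.55-fold), and complex II, the only complex that is also an enzyme of the citric acid cycle, 109 and 105 CPM against 383 and 379 CPM (3.52-fold and 3.62-fold). The sums of complexes II and IV thus lay nearer to the macrophage-like level than those of I, III and V in both pools. Single genes weigh heavily in these 2 sums. In complex IV, Cox8a alone had 596 and 559 CPM in neutrophil-like cells against 816 and 829 CPM. In complex II, Sdhd had 48.8 and 42.9 CPM against 100 and 91.0 CPM. The contrast is therefore not shown for these complexes as a whole.

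Gene by gene, 81 mouse members were measured, meaning at least 20 CPM in the higher class and at least 100 UMIs in total in each pool. Of these, 76 were at least 2-fold lower in neutrophil-like cells in both pools and 0 were higher, with a median log2 ratio of -2.44. Over all 5416 measured genes the median was -1.12, with 50.4% as much lower and 15.4% as much higher. Members can pass that minimum through the macrophage-like level alone, so the 50 members with at least 20 CPM in both classes are the fairer count. Of those, 45 were at least 2-fold lower, with a median of -2.01, against 24.3% of the 2619 such genes and a median of -0.05. The size of the ratio rests on how libraries are scaled. With TMM factors 41 of 81 members were 2-fold lower and with DESeq2 size factors 40. The shares of all genes above hold for plain CPM and do not apply to these 2 counts. The shares under these factors are not given here, so the 2 counts are not shown to be particular to members.

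The 5 members with the largest ratio were all under 20 CPM in neutrophil-like cells of the young pool and passed the minimum through macrophage-like cells. Ndufa5, an accessory subunit of complex I, had 1.58 and 2.18 CPM in neutrophil-like cells and 97.2 and 94.8 CPM in macrophage-like cells (61.6-fold lower, 44.1 to 88.4, and 43.6-fold, 32.5 to 59.5). Ndufc2, another complex I accessory subunit, had 4.14 and 4.79 CPM against 208 and 243 CPM (50.2-fold and 50.8-fold). Ndufa9, which stabilises the junction between the arms of complex I, had 2.13 and 1.96 CPM against 61.7 and 60.3 CPM. These 3 genes stood at 26.6 and 19.5, 49.2 and 42.7, and 17.8 and 9.74 CPM in the stray mouse UMIs of tumour droplets, all above their level in neutrophil-like cells. Atp5g1 and Atp5g2, both encoding the c subunit of the ATP synthase rotor, had 8.83 and 10.7 CPM against 319 and 309 CPM, and 17.0 and 20.8 CPM against 492 and 472 CPM.

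The 5 members nearest to the macrophage-like level were less than 2-fold lower. Cox8a, the common isoform of a small complex IV subunit, had 596 and 559 CPM in neutrophil-like cells and 816 and 829 CPM in macrophage-like cells (1.37-fold lower, 1.32 to 1.42, and 1.48-fold, 1.43 to 1.54). Atp5l, subunit g of ATP synthase, had 326 and 297 CPM against 570 and 560 CPM, and 718 and 656 CPM in monocyte-like cells. Ndufa7 and Ndufb9, both accessory subunits of complex I, had 119 and 110 CPM against 214 and 204 CPM, and 149 and 152 CPM against 276 and 275 CPM. Sdhaf2, which helps to attach the flavin cofactor to complex II, had 29.6 and 26.7 CPM against 28.1 and 29.8 CPM, and both intervals of its ratio included 1. Within complex IV the contrast was sharp: Cox4i1, a core nuclear subunit, had 233 and 239 CPM against 1103 and 1111 CPM, and Ndufa4 17.7 and 21.3 CPM against 338 and 374 CPM.

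**Figure D2:**
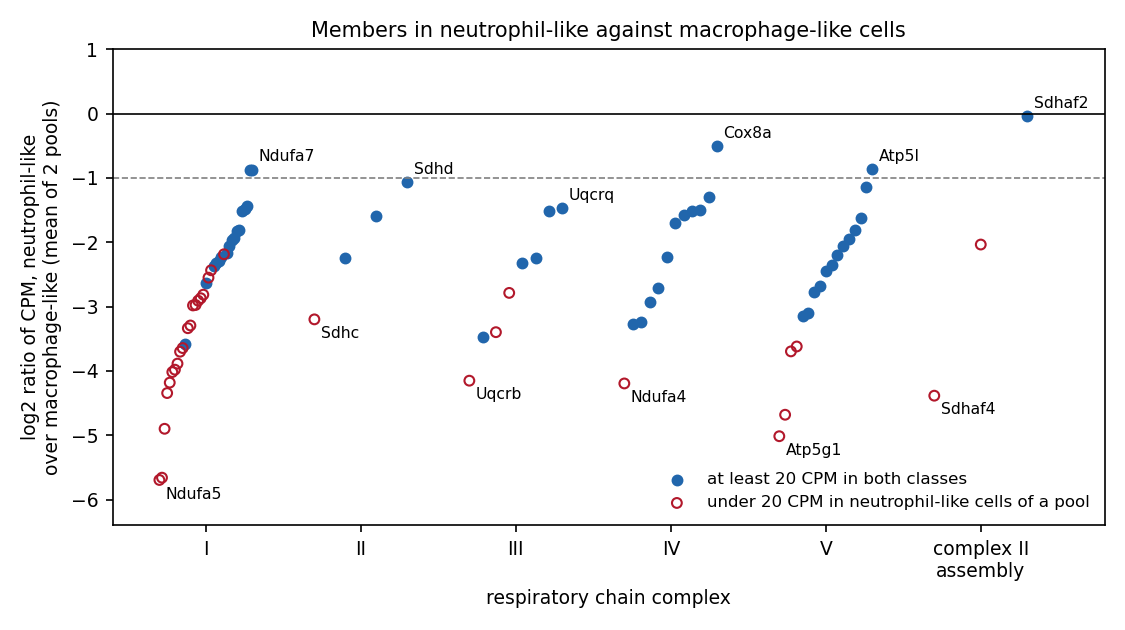
Log2 ratio of CPM in neutrophil-like over macrophage-like cells (mean of both pools) for the 81 measured mouse members, by complex, with filled points for members at 20 CPM or more in both classes and open points for members under 20 CPM in neutrophil-like cells of a pool; the dashed line marks 2-fold lower. Points run from Ndufa5 at the bottom to Sdhaf2 near 0, and 76 members lie 2-fold lower in both pools.

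The other classes gave like counts. Against monocyte-like cells 75 of 81 members were 2-fold lower (49.9% of all genes) and 44 of the 50 above 20 CPM in both (26.1%). Against NK-like cells it was 71 of 80 (47.1%) and 41 of 50 (27%), and against endothelial-like cells 73 of 81 (56.2%) and 42 of 50 (31%). All of these comparisons share the neutrophil-like cells, so they are not separate evidence.

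Fibroblast-like cells are given in more detail. Of 82 measured members 72 were at least 2-fold lower in neutrophil-like cells and 0 higher (median log2 -2.47, with -1.68 over all 6227 measured genes, 57.5% of which were as much lower and 18.9% higher). Among the 50 members at 20 CPM or more in both classes 40 were 2-fold lower, against 27.4% of such genes. With TMM factors 41 and with DESeq2 size factors 34 of the 82 were 2-fold lower, and the shares of all genes above do not apply to these counts. Without shares under these factors the counts are not shown to be particular to members. Ndufa4l2, the hypoxia-inducible paralog of Ndufa4, had the widest ratio, with 0.853 and 1.22 CPM against 190 and 191 CPM in fibroblast-like cells. It was followed by Ndufa5, Ndufc2, Atp5g1 and Ndufa9, which were also lowest against macrophage-like cells, and that comparison shares the neutrophil-like cells with this one. At the other end, Cox8a was 1.13-fold and 1.10-fold lower and Sdhaf2 had 29.6 and 26.7 against 29.7 and 28.3 CPM, followed by Atp5l, Sdhd, which anchors complex II in the membrane, and Ndufv3, a small subunit of the NADH-oxidising arm.

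Other mitochondrial lists were low to very different degrees. The 13 subunits encoded by mitochondrial DNA summed to 4885 and 4528 CPM in neutrophil-like cells and 28631 and 31638 CPM in macrophage-like cells. All 13 were 2-fold lower, from mt-Nd1 (68.3 and 63.6 against 1384 and 1561 CPM) to mt-Co1 (1719 and 1574 against 5718 and 6046 CPM). The mitochondrial ribosome list (78 genes) summed to 3.44-fold and 3.25-fold lower, and the citric acid cycle and pyruvate dehydrogenase list to 3.26-fold and 3.05-fold lower, with 9 of 14 measured genes past 2-fold, where 50.4% of all measured genes were. The assembly factor list summed to 1104 and 1182 CPM against 1339 and 1336 CPM, and the list of biogenesis regulators was 1.16-fold and 1.23-fold lower at 172 and 170 CPM. Among carriers, the adenine nucleotide translocator gene Slc25a4 had 4.95 and 5.61 CPM against 150 and 131 CPM, while Cycs, which encodes cytochrome c, had 120 and 115 CPM against 97.7 and 99.0 CPM. Of 15 measured glycolysis genes 6 were at least 2-fold higher in neutrophil-like cells, where 15.4% of all measured genes were, and 0 lower. The glucose transporter gene Slc2a3 had 234 and 246 CPM against 6.23 and 7.68 CPM, and the lactate exporter gene Slc16a3 924 and 1008 CPM against 178 and 129 CPM. The low level was not limited to mitochondria, since the cytosolic ribosome list (83 genes) was 6.01-fold and 5.94-fold lower.

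Some tissue-restricted isoforms were found in few host classes. Cox6a2, the muscle form of a complex IV subunit, had 1278 and 1303 CPM in the small dendritic-like class (32 and 30 cells, with Siglech, Ccr9 and Cox6a2 itself among the leading genes) and at most 5.76 CPM in every other named host class. Cox6a1, its common form, had 181 and 192 CPM there, the lowest value outside neutrophil-like cells. Ndufa4l2 had 190 and 191 CPM in fibroblast-like cells, 169 and 255 CPM in an unnamed cluster led by Rgs5 and mitotic genes, and at most 3.46 CPM in the other host classes of at least 100 cells in each pool. Cox4i2, the form of subunit 4 known from lung and from low oxygen, had 26.1 and 19.3 CPM in fibroblast-like cells and 29.9 and 67.9 CPM in the Rgs5 cluster. Cox7a1 and Cox6b2 stayed at or under 18.0 CPM in each named class, and Cox8b and Cox8c were at or near 0. In tumour cells COX4I2, COX6A2 and COX7A1 had 0 UMIs, COX8C had 1 UMI per pool and COX6B2 had 0.648 and 0.446 CPM.

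One small host cluster held the highest level of all. Its 75 and 66 cells were led by Acp5, Ctsk, Dcstamp and Ocstamp. It carried 9 markers of the macrophage list but none among its leading genes, which did include Mmp9 of the neutrophil list. By the naming rule it was therefore left unnamed. Members summed to 51481 and 44254 CPM, 2.50-fold and 2.17-fold above macrophage-like cells, and a cell held a mean of 1324 and 1134 member UMIs. Of 82 measured members 52 were at least 2-fold higher than in macrophage-like cells in both pools and 0 lower, where 9.88% of 5577 genes were as much higher and 10.8% lower. At 20 CPM or more in both, 81 members remained, with 52 higher, against 7.63% of 4233 genes higher and 7.35% lower. The cluster was singled out after its member level was seen, so these counts describe that level and are not separate evidence for it. The members that stood highest were Uqcr10 and Uqcrc2 of complex III (1059 and 860 against 231 and 250 CPM, and 309 and 284 against 71.1 and 81.4 CPM), the catalytic ATP synthase subunit Atp5b (1327 and 1184 against 323 and 321 CPM), the carrier protein Ndufab1 and the iron-sulphur subunit Sdhb. The mtDNA-encoded subunits summed to 55581 and 54608 CPM there. Of the citric acid cycle list 12 of 15 measured genes were 2-fold higher, and of 14 glycolysis genes 4 were 2-fold lower. The cells were deep, with a median of 24247 UMIs against 9023 in macrophage-like cells, and the part of that in the CPM was not tested.

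The 11 neutrophil-like clusters spanned 2.20-fold in summed member level, and 1.41-fold with a species call at 98% or with Leiden resolution 0.5. Cluster 7, led by Tnfaip2 and Ltb, was highest at 7252 and 6891 CPM, close to cluster 19, led by the granule genes Ngp, Camp and Ltf of immature neutrophils, at 6932 and 6561 CPM. The total behind these values was uneven in make-up. S100a8 and S100a9 together took 336317 and 332272 CPM in cluster 19, 122369 and 118590 CPM in cluster 7, and 164861 and 152947 CPM in cluster 4. The part of these genes alone in the order of the clusters was not tested. Cluster 3, led by Il23a and Tnf, had 5508 and 6579 CPM, and its pools differed more than those of the other clusters. Cluster 4, led by the chemokine genes Cxcl3 and Ccl3, was lowest in both pools at 3341 and 3081 CPM. Every neutrophil-like cluster lay below every named host class. Of 70 members measured across these clusters, 48 were lowest in cluster 4, 32 were highest in cluster 19 and 23 in cluster 7. The share of all genes with their extremes in these clusters is not given here, so the counts are not shown to be particular to members.

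**Figure D3:**
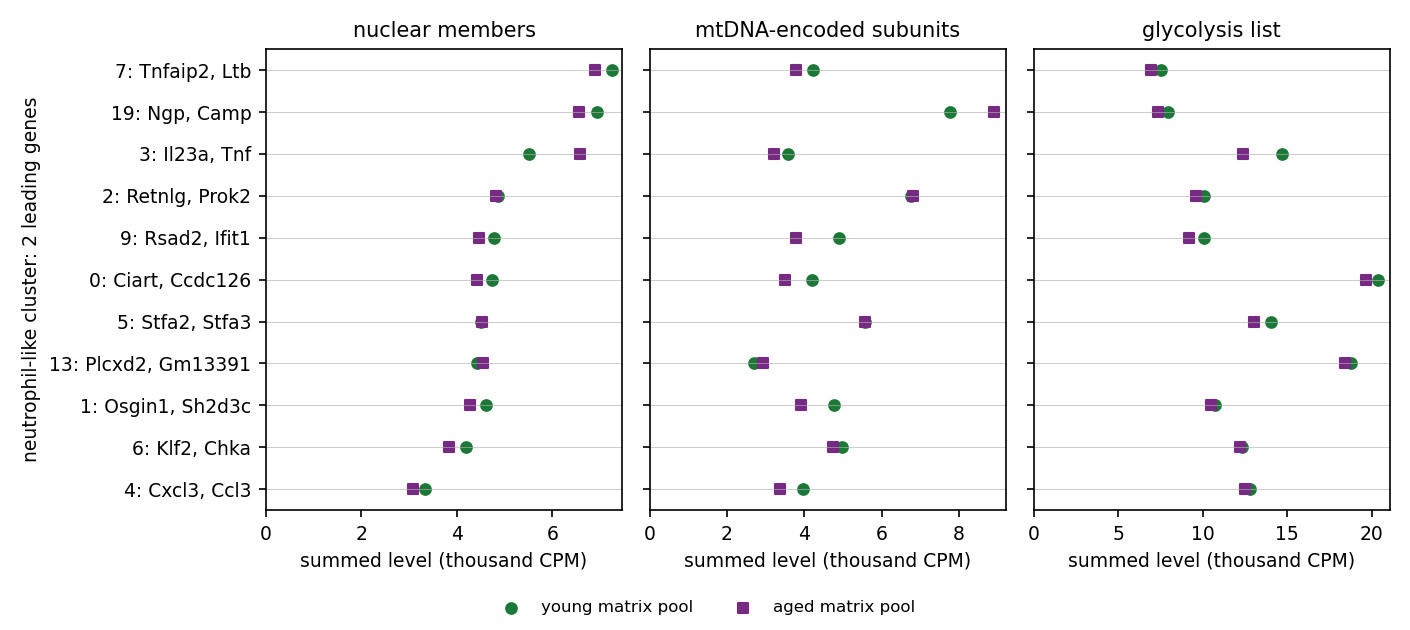
Summed level (in units of 1000 CPM) of the nuclear members, the mtDNA-encoded subunits and the glycolysis list in 11 neutrophil-like clusters, each named by its number and 2 leading genes, with circles for the young and squares for the aged matrix pool. Cluster 7 is highest for nuclear members (7252 and 6891 CPM) and lowest for glycolysis (7526 and 6960 CPM), and cluster 19 is highest for the mtDNA-encoded subunits.

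The widest member ranges were in complex I. Ndufb8, an accessory subunit, had 86.6 and 90.8 CPM in cluster 19 and 6.0 and 10.9 CPM in cluster 4. Ndufc1 had 37.6 and 32.5 CPM in cluster 19 and 3.20 and 3.39 CPM in cluster 4, and Ndufb10 47.4 and 48.8 against 5.20 and 6.39 CPM. Ndufa11, in the membrane arm of complex I, had 44.1 and 48.8 CPM in cluster 19 against 4.4 and 5.27 CPM in cluster 4. Sdhaf1, a complex II assembly factor, rests on few UMIs: 11.8 and 37.3 CPM in cluster 3, and 3 UMIs over both pools in cluster 19. The typical range was no wider than that of other genes, with a median of 3.81-fold over the 70 members and 3.92-fold over 4565 genes.

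Nuclear and mitochondrial genes did not run in parallel across neutrophil-like clusters. Cluster 7 exceeded cluster 4 at least 1.5-fold in both pools for 44 of 47 measured members, where 39.7% of 2829 genes did, and 0 were as much lower, where 8.13% of genes were, while 0 of 9 measured mtDNA-encoded subunits were as much higher. Cluster 19 exceeded cluster 4 for 24 of 35 members, where 20.1% of 2109 genes did, and cluster 3 for 34 of 52, where 33.8% of 3178 genes did. In both of these pairs 0 members were as much lower, where 39.7% and 1.89% of genes were. These pairs were chosen after their levels were seen. The mtDNA-encoded sums were 4231 and 3788 CPM in cluster 7 and 3976 and 3362 CPM in cluster 4, and the highest were 7760 and 8910 CPM in cluster 19. Glycolysis was lowest in cluster 7 at 7526 and 6960 CPM and highest in cluster 0 at 20382 and 19630 CPM. Cluster 19 was also the deepest, with a median of 7996 UMIs against 1556 to 3189 in the others, and depth was not separated from the cluster differences.

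In tumour cells the respiratory chain genes were abundant and nearly level between matrix ages. The summed level of 19248 CPM in the young pool and 18751 CPM in the aged pool gives a ratio of 0.974 (0.972 to 0.976). Sets of at least 100 tumour cells with the same hashing tag spanned 17954 to 19721 CPM over 3 sets of the young pool and 18208 to 19315 CPM over 3 sets of the aged pool. These sets hold 782 of the 2118 young and 876 of the 2024 aged cells, and the labels do not say what a tag stands for, so their spread is not known to be one between lesions or animals. The pools differed by less than the tag sets within a pool did. Of 95 members 82 were measured, and 0 of them differed by 1.5-fold or more, where 0.221% of 5427 genes did. Their median log2 ratio of aged to young was -0.05, with 68 ratios below 1 and 14 above, against a median of 0.01 over all measured genes. By the latter median, most of all measured genes had a ratio above 1.

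For each complex the measured members with its own lowest and highest ratio are named, all within this narrow range. In complex I, NDUFA6 had 92.0 CPM in the young and 83 CPM in the aged pool (ratio 0.902, 0.872 to 0.933), the lowest ratio of the 82 measured members, and NDUFC2 254 and 256 CPM (1.01, 0.987 to 1.03). In complex II, SDHD had 50.1 and 47.2 CPM and the flavoprotein gene SDHA 26.6 and 27.5 CPM (1.03, 0.974 to 1.10). In complex III, UQCRQ, which binds next to cytochrome b, had 414 and 392 CPM and the Rieske iron-sulphur gene UQCRFS1 110 and 111 CPM. In complex IV, COX6C had 348 and 323 CPM (0.927, 0.912 to 0.943), and COX7A2L, which links complexes III and IV into supercomplexes, had 212 and 231 CPM (1.09, 1.07 to 1.11), the highest ratio of the measured members. In complex V, ATP5MF had 233 and 216 CPM and the c-subunit gene ATP5MC2 481 and 496 CPM.

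The span over tumour clusters was far wider than the difference between matrix ages over all tumour cells. Over 14 clusters of tumour cells the summed level spanned 1.69-fold. It was highest in cluster 8, led by KRT6A and CSTA (22902 and 22627 CPM), and in cluster 12, led by histone genes of dividing cells (23021 and 22374 CPM), and stood between 20711 and 21844 CPM in the replicating cluster 3 with MCM6, the mitotic cluster 6 with ASPM and CENPF, and cluster 9 with PTTG1 and CDC20. It was lowest in cluster 1, led by the matrix metalloproteinase genes MMP1, MMP9 and MMP10 (13804 and 13117 CPM), and in cluster 11, led by SERPINE2 and IGFBP3 (14282 and 13992 CPM). The HSPA6 cluster 7 had 16149 and 14422 CPM and the CCN2 and ADM cluster 2 had 16395 and 16365 CPM. Cluster 13, led by SCGB2A2 and LY6D, had 22090 and 19933 CPM. The pools of clusters 7 and 13 lay further apart than those of all tumour cells. Of 83 members measured across clusters, 35 were lowest in cluster 1 and 27 in cluster 11, and 29 were highest in cluster 12 and 22 in cluster 8. The share of all genes with their extremes in these clusters is not given here, so the counts are not shown to be particular to members. The members varied less than most genes, with a median range of 2.18-fold against 3.79-fold over 7474 genes.

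**Figure D4:**
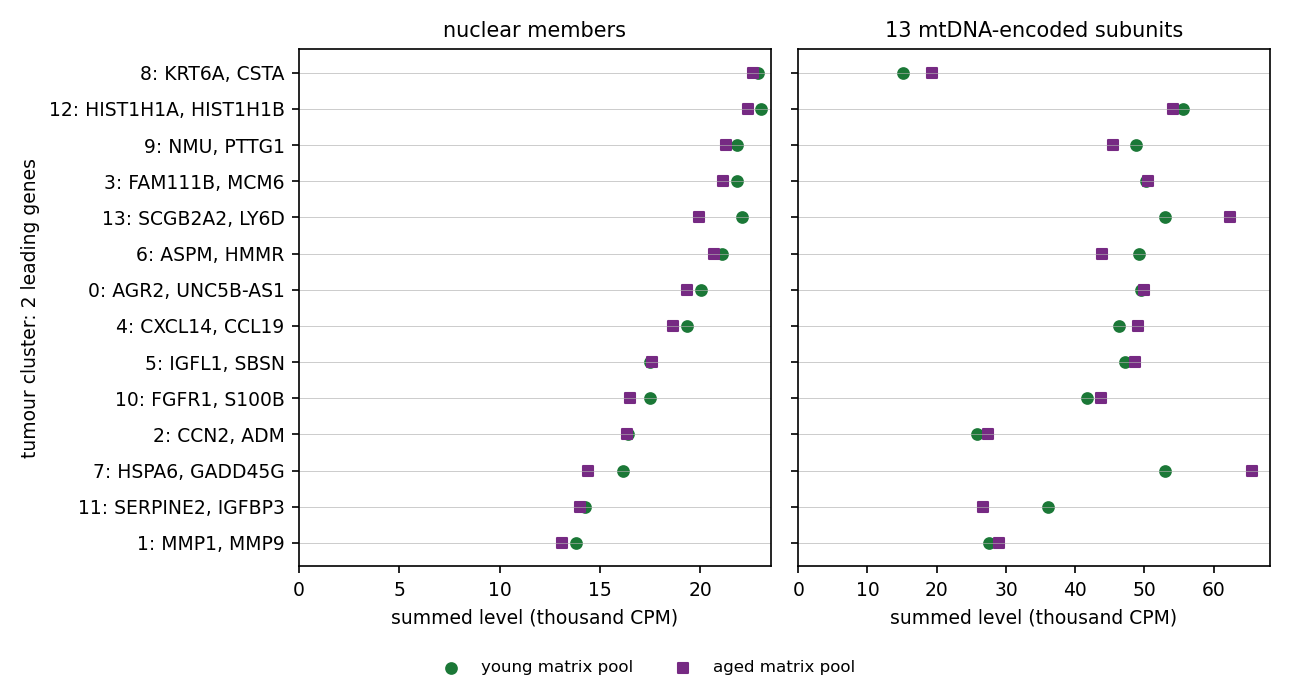
Summed level (in units of 1000 CPM) of the nuclear members and of the 13 mtDNA-encoded subunits in 14 tumour clusters, each named by its number and 2 leading genes, with circles for the young and squares for the aged matrix pool. Clusters 1, 2 and 11 are low in both panels, and cluster 8 is high for nuclear members (22902 and 22627 CPM) and lowest for mtDNA-encoded subunits (15069 and 19279 CPM).

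Clusters 1, 2 and 11 were also alike in other lists. Their mtDNA-encoded sums were low (27553 and 29008, 25782 and 27348, and 36080 and 26725 CPM, against 49477 and 50003 CPM in cluster 0, led by AGR2). Their hypoxia list was the highest of all tumour clusters, at 4730 and 5178, 3527 and 3481, and 4691 and 5062 CPM, against 1146 and 1179 CPM in cluster 0. ADM, a leading gene of clusters 2 and 11, is on that list. Genes of the hypoxia and glycolysis lists were not left out of the clustering. The glycolysis sums of clusters 1, 2 and 11, from 11451 to 13474 CPM, lay above the 7522 and 7541 CPM of cluster 0. Low mtDNA-encoded and high glycolysis sums were not particular to them: cluster 8, high for nuclear members, had 12993 and 13006 CPM of glycolysis and the lowest mtDNA-encoded sum. Against cluster 0, 38 of 81 measured members were at least 1.5-fold lower in cluster 1 in both pools, where 20% of 5702 genes were, and 1 was higher, where 21.5% were. In cluster 2, 20 of 81 members were as much lower, where 21.6% of 5115 genes were, a share near that of the members, and 1 was higher, where 6.24% of genes were. That 1 gene was NDUFA4L2 in both contrasts. Against cluster 0, cluster 12 had 6 of 83 members higher and 0 lower, where 18.7% of all genes were higher and 8.54% lower, and cluster 8 had 3 of 81 higher and 3 lower, against 4.93% and 43.6% of genes. The contrasts between clusters were chosen after their levels were seen.

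Low depth came with 2 of the clusters at the edges. Cluster 8 had a median of 4606 UMIs and 0.091% mitochondrial UMIs per cell, and its mtDNA-encoded sum was the lowest of all (15069 and 19279 CPM). The cluster was mixed: 75.8% and 64.5% of its cells were under 1% mitochondrial UMIs. Cluster 7 had a median of 7231 UMIs and the opposite combination, with 53035 and 65571 CPM of mtDNA-encoded subunits. Without both shallow clusters the range over clusters was 1.69-fold. If the limit on mitochondrial UMIs was dropped, a cluster led by MTRNR2L12 became the lowest and the range was 3.24-fold.

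NDUFA4L2 had the widest range of any member across tumour clusters, 6.92-fold, and ran against its paralog NDUFA4. NDUFA4L2 is a known target of hypoxia-inducible factor 1. NDUFA4L2 had 680 and 738 CPM in cluster 2, 670 and 657 CPM in cluster 1 and 556 and 644 CPM in cluster 11, and it was lowest in cluster 3 at 112 and 93 CPM. NDUFA4 had 376 and 369, 253 and 241, and 321 and 292 CPM in the same 3 clusters, and 598 and 574 CPM in cluster 3. NDUFA4L2 was above NDUFA4 in clusters 1, 2 and 11 in both pools, and these are 3' end counts with no length factor. Cluster 8 was the exception to a simple exchange, with 505 and 643 CPM of NDUFA4L2 beside 518 and 509 CPM of NDUFA4. NDUFA4L2 was high there although the hypoxia list was not, at 1069 and 1225 CPM, near the 1146 and 1179 CPM of cluster 0. Over all tumour cells NDUFA4L2 had 313 and 337 CPM and NDUFA4 482 and 472 CPM, while in host cells Ndufa4l2 exceeded 20 CPM in both pools in fibroblast-like cells and the Rgs5 cluster.

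**Figure D5:**
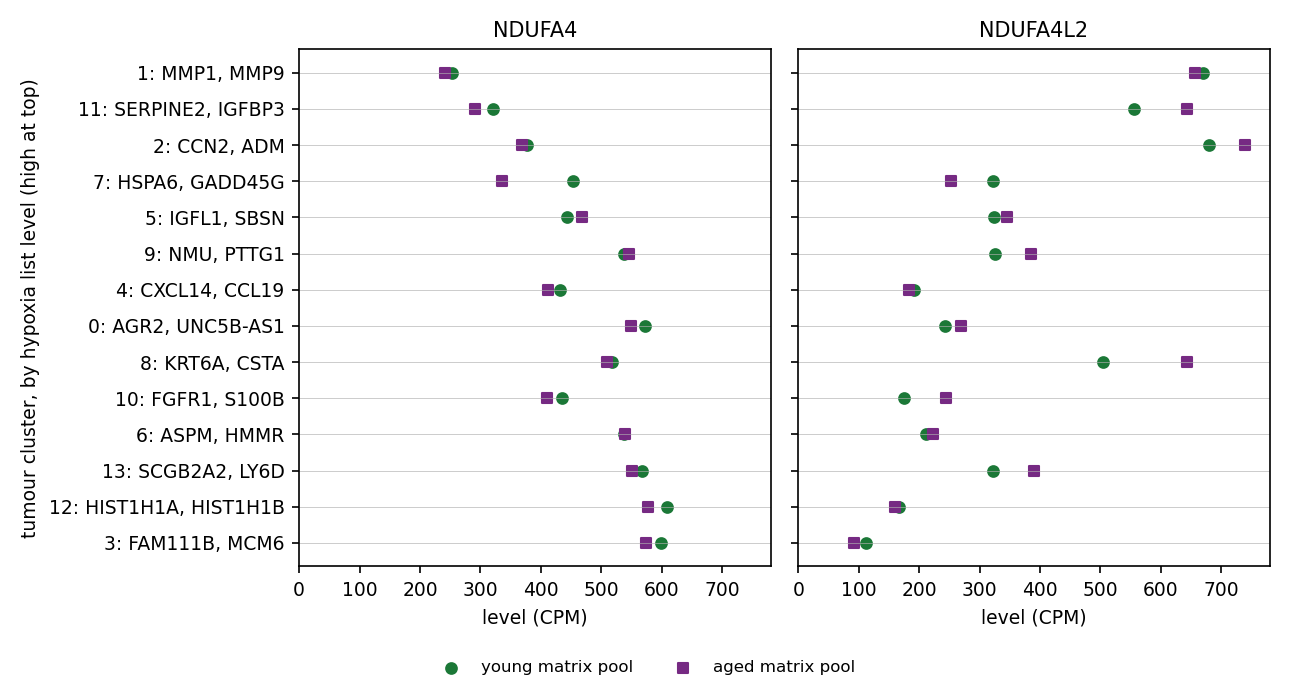
Level (CPM) of NDUFA4 and NDUFA4L2 in 14 tumour clusters ordered by the summed level of the hypoxia list in the young pool, highest at the top, with circles for the young and squares for the aged matrix pool. The 3 clusters at the top have NDUFA4L2 between 556 and 738 CPM and NDUFA4 between 241 and 376 CPM. Cluster 8, further down with a hypoxia list of 1069 and 1225 CPM, is also high for NDUFA4L2.

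The other members of widest range were SDHAF3, ATP5MC1, SDHAF1 and NDUFS6. ATP5MC1, a c-subunit gene of ATP synthase, had 506 and 492 CPM in the histone cluster 12 and 94.2 and 80.4 CPM in cluster 11, with 95.9 and 92.5 CPM in cluster 1 and 109 and 106 CPM in cluster 2. NDUFS6, a zinc-binding subunit of complex I, had 420 and 406 CPM in cluster 12 and 125 and 97.2 CPM in cluster 11. SDHAF3, which protects the iron-sulphur subunit of complex II during assembly, followed the same order at a low level, 28.3 and 29.7 CPM in cluster 12 and 5.11 and 4.73 CPM in cluster 11. SDHAF1 differed, with its highest value in cluster 7 (42.5 and 27.6 CPM, 75 UMIs in all) and its lowest in cluster 8 (11.1 and 6.01 CPM, 11 UMIs). Least variable were NDUFS4, COX7A2L and NDUFB4, with ranges of 1.27-fold, 1.37-fold and 1.49-fold.

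The stretches upstream of these 4 genes are shown because their levels moved the most between tumour states and RefSeq promoter windows (GRCh38.p14) were given for them. Each runs on the plus strand from base 250 to base 31 before the RefSeq start: SDHAF3 at chr7:97117448-97117667, ATP5MC1 at chr17:48892537-48892756, SDHAF1 at chr19:35994938-35995157 and NDUFS6 at chr5:1801157-1801376. Capitals mark matches, on either strand, to GCGCANGCG (NRF1 type), CCGGAAG (ETS type), AAGATGGC (YY1 type), CCAAT and ACGTG (the core of the hypoxia response element).
SDHAF3: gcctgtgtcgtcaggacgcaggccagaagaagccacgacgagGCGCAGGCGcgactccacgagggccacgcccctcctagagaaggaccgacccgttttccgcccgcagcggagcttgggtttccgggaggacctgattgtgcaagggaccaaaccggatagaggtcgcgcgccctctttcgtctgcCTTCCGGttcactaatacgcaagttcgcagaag
ATP5MC1: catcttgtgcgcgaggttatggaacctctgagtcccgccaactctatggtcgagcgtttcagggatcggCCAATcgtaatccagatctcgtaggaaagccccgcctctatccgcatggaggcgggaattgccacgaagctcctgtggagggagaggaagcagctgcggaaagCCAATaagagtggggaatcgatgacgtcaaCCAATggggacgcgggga
SDHAF1: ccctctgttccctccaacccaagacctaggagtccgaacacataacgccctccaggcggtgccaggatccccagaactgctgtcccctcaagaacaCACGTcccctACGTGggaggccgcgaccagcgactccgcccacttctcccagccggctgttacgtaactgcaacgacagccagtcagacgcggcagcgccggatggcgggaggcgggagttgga
NDUFS6: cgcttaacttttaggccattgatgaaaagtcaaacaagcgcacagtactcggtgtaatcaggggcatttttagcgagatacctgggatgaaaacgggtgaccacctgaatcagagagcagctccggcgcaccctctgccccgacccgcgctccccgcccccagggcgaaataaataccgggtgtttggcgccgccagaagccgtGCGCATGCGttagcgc

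SDHAF3 held 1 NRF1-type and 1 ETS-type match, ATP5MC1 held 3 CCAAT boxes, SDHAF1 held 2 hypoxia response cores and NDUFS6 held 1 NRF1-type match in these stretches. Among the 250 upstream bases of 88 promoter windows of 75 human members, 26.1% held the NRF1-type letters, against 6.56% of all 35116 windows. The ETS-type letters were in 22.7% against 8.52%, the YY1-type in 3.41% against 1.36%, CCAAT in 33.0% against 32.0% and ACGTG in 21.6% against 18.5%. A match describes letters only, windows of 1 gene can overlap, and binding was not measured.

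In host cells, 0 of the measured members differed by 1.5-fold or more between the pools in each of the 6 classes with at least 100 cells in each. Members under the minimum level were not counted, such as Cox4i2 in macrophage-like cells. It had 17.0 and 7.10 CPM there (2.39-fold lower in the aged pool, 1.61 to 3.61). In neutrophil-like cells 0 of 54 measured members differed by 1.5-fold, where 0.522% of 3256 genes did. Their summed ratio of aged to young was 0.996 (0.988 to 1.005) and their median log2 ratio 0.03, against 0.05 over all measured genes. TMM factors gave -0.08 and DESeq2 size factors -0.06. The edges were Ndufv3, with 92.4 and 75.9 CPM (ratio 0.822, 0.771 to 0.876), and Ndufb3, an accessory subunit of complex I, with 16.3 and 20.4 CPM (1.26, 1.10 to 1.44). Ndufb3 reached the minimum of 20 CPM through the aged pool alone, and lower members such as Ndufa10 (6.44 and 8.61 CPM, 1.34) were not counted. Some uncounted members passed 1.5-fold, among them the complex II assembly factors Sdhaf1 and Sdhaf4. Sdhaf1 had 6.74 and 11.0 CPM (1.63, 1.33 to 2.00) and Sdhaf4 1.88 and 3.09 CPM (1.65, 1.11 to 2.45). The 9932 neutrophil-like cells of the aged pool and the 9576 of the young pool make this the host class with the most cells behind it, though with few UMIs each.

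The summed level was lower in the aged pool in each of the other 5 classes, by unequal amounts. In fibroblast-like cells the summed ratio was 0.924 (0.920 to 0.928), with 76 of 83 measured members below 1 and a median log2 ratio of -0.12 against -0.04 over all genes. By that median, most of all measured genes also had a ratio below 1 in this class. This class holds 2 clusters of unequal level and make-up: cluster 11, led by Dpt and Ogn, with 301 and 610 cells and 17200 and 15604 CPM, and cluster 12, led by Grem1 and Hmga2, with 349 and 407 cells and 20775 and 20478 CPM. The part of that make-up in the ratio of the class was not tested. In NK-like cells the summed ratio was 0.912 (0.897 to 0.928), with 66 of 78 members below 1 and a median of -0.15 against 0.02. By the latter median, most of all measured genes had a ratio above 1 there. Monocyte-like cells had a summed ratio of 0.952, macrophage-like cells 0.989 and endothelial-like cells 0.957. The unnamed Rgs5 cluster went the other way, with 20813 and 22289 CPM (1.07, 1.06 to 1.08). That cluster carried 10 markers of the fibroblast list and 8 of the next best list. Its leading gene Rgs5 is on the list for pericytes or smooth muscle, so it is not a plain fibroblast-like counterpart. At 1.5-fold, 4.22% of genes in fibroblast-like, 4.67% in NK-like, 1.03% in monocyte-like, 1.86% in macrophage-like and 4.56% in endothelial-like cells differed. None of these shifts can be set against a spread between animals, since the labels tie no cell to an animal.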

How the data were processed

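Single-cell 3' libraries (10x Genomics) of dissociated lesions were analysed, 1 gene expression library and 1 hashing library per matrix age. The values the authors deposited are whole-number UMI counts per feature and barcode, made with Cell Ranger 6.0.0 on GRCh38 and mm10, per the submitters' processing notes; strand and multi-mapping settings are not given in the sources used here. Retrocopies, antisense partners and human-mouse homologs may share reads with members, since the reference was joint.

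Barcodes were called human at 90% or more and mouse at 10% or less human gene UMIs, which left out 1369 and 1083 mixed barcodes. Cells were kept with at least 500 UMIs, 300 genes and at most 20% mitochondrial UMIs, and cells with a doublet score over 0.25 (Scrublet in scanpy 1.11.5) were removed: 130 and 149 human and 1031 and 1127 mouse cells. Cells of each species were clustered (2000 variable genes without members, 30 components, 15 neighbours, Leiden resolution 1, leidenalg 0.10.2). Mouse clusters were named from marker lists by a rule set after the data were seen, with at least 3 markers, and names were not checked by surface protein.

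Levels are CPM: UMIs of a gene or list, added over the cells of a class in a pool, over all gene UMIs of that species there. Ratios have exact conditional binomial intervals and levels exact Poisson intervals (95%), which cover counting error only. The totals behind them ran from 78448046 to 80305541 UMIs in tumour cells and from 65285395 to 71019326 UMIs in mouse cells. Members were called apart between pools at 1.5-fold and between classes at 2-fold in both pools; clusters were compared by description. The ratio and the 1.5-fold call rule were tried on Poisson counts simulated for the pool comparisons of tumour and neutrophil-like cells. Changes of 2-fold in both directions were planted, with no spread between libraries or cells. The 2-fold rule between classes was not simulated. Members, gene lists and comparisons were chosen with earlier results of these data known. Genes named are the members at each end of a complex, contrast or cluster range, isoform pairs and list ends. Alternatives were species purity, doublet and mitochondrial filters, scaling (edgeR 4.0.16 TMM, DESeq2 1.42.0, leaving out top genes), minimum level, cell weight, hashing tag and clustering; count models were not fitted, since each group has 1 library.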

Additional observations from a re-analysis of the deposited data

How the results depend on the processing

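For 10 summary values, the alternative settings gave 129 values in all. Of these, 97 were scored as the same as the reported value, 29 as moved and 3 as reversed in sign. A count was scored as the same within 1.5-fold, and a median or range within a limit taken from counting error. In tumour cells, 0 members differed by 1.5-fold between pools under all 11 alternatives, and the median log2 ratio stayed between -0.06 and -0.03. For the counts that follow, shares of all genes under the alternatives are not given here. In neutrophil-like cells the count between pools was 1 with the 100 top genes left out of the total and 5 with no minimum level. Their median log2 ratio of 0.03 reversed to -0.0752 with TMM, -0.0604 with DESeq2 size factors and -0.0202 with a minimum of 100 CPM. The cause of these changes was not tested.

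Against macrophage-like cells the count of 76 members was 41 with TMM and 40 with DESeq2 size factors, and against fibroblast-like cells 72 became 41 and 34. The medians were -1.12 and -1.02 against macrophage-like cells and -1.01 and -0.75 against fibroblast-like cells, since these factors moved the median of all genes from -1.12 to 0.20 and 0.30 in the former. With the top genes left out the medians were -1.69 and -1.98, with the cytosolic ribosome left out of the total -2.63 and -2.72, and with no minimum -2.67 against fibroblast-like cells. The ribosome setting, the limit to cells with at least 2000 UMIs and the removal of shallow tumour clusters were chosen after seeing the data.

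The range over tumour clusters (1.69-fold) was 1.63 with a species call at 98%, 1.65 with at most 10% mitochondrial UMIs, 1.65 with Leiden resolution 0.5, 1.82 with cells weighted alike, 2.17 without the top genes and 3.24 without a mitochondrial limit. For neutrophil-like clusters (2.20-fold) the same settings gave 1.41, 2.29, 1.41, 2.27, 2.03 and 2.61, with 2.16 when members were among the variable genes and 2.62 at resolution 2. No paired analysis was possible because each group has 1 gene expression library. Leaving out a replicate was not possible for the same reason. Members under 20 CPM in neutrophil-like cells rest on few UMIs, and their ratios have the widest intervals among those printed.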
